A study of Mus musculus with 12 samples.

Results

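The genes described here encode the subunits of the constitutive 26S proteasome and 3 of the chaperones that assemble it. They were taken from the deposited mouse liver table as the protein-coding genes whose symbol starts with Psma, Psmb, Psmc or Psmd followed by a digit, without Psmb8, Psmb9 and Psmb10, that reached 1 FPKM in 3 or more of the 12 libraries. FPKM counts the fragments of a gene per kilobase of exon, here scaled by a factor of the library. The rule left 34 genes of 37 with a fitting symbol, among 10806 genes that passed the same filter on low values. All 34 were above 1 FPKM in all 12 libraries, so that none entered the set through 1 group alone. The rule also fixed that every member was expressed, which is therefore not a result, but it used no difference between groups.

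The proteasome degrades proteins that carry ubiquitin chains. Its core is a barrel of stacked rings of alpha and beta subunits, and the catalytic threonines sit on the beta subunits Psmb5, Psmb6 and Psmb7, so that proteolysis happens inside the chamber. The regulatory particle caps the barrel: the Psmc ATPases unfold the substrate, and some of the Psmd non-ATPase subunits bind ubiquitin or remove it. In mouse and human cells the transcription factor NRF1, encoded by Nfe2l1, raises most of these genes together when proteasome activity falls, and interferon exchanges the catalytic subunits for Psmb8, Psmb9 and Psmb10.

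The mice were wild-type C57BL/6J, and their liver RNA was sequenced in 4 groups of 3 libraries. CD was a diet whose name the labels do not spell out, HFD was a high-fat diet, and CD_DSS and HFD_DSS were the same diets with 2% dextran sulfate sodium (DSS), a polysaccharide widely given to mice to injure the colon. The labels do not state how and for how long DSS was given, the sex or age of the mice, or whether each library came from its own mouse. The p-values therefore reflect only how far these libraries differ, which may in part be technical. Library depth ran from 23.4 M fragments in HFD_DSS 1 to 29.4 M in CD_DSS 1, and a member had between 206 fragments (the lowest library of Psmd10) and 6983 (the highest of Psmd2). The factor that scaled the FPKM, recovered from the values, was not this depth. It was 21.7 M in HFD_DSS 1, and 27.8 M in HFD_DSS 2 against 26.5 M fragments.

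The liver label fitted 10 hepatocyte markers, Alb and Apoa1 among them, whose summed level ran from 32337 to 56366 FPKM. Summed markers of macrophages ran from 236 to 374 FPKM without DSS and from 265 to 497 with it, and those of neutrophils from 1.36 to 22.5 and from 3.30 to 55.6. No marker of any of these lists was at 0 in all libraries. In bulk RNA fewer cells of a type and less RNA per cell cannot be told apart. HFD 1, CD_DSS 1 and HFD_DSS 2 stood apart from the other libraries of their groups. Saa1, an acute-phase gene of hepatocytes, was at 579 FPKM in HFD 1, while HFD 2 and 3 had 19.9 and 22.4. It was at 9.14 FPKM in CD_DSS 1 against 595 and 483 in CD_DSS 2 and 3, and at 191 FPKM in HFD_DSS 2 against 1104 and 2670 in HFD_DSS 1 and 3. Calls and medians of the members that rest on these 3 libraries are given with and without them.

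Promoter sequences are shown first, since the members are known for their joint control. RefSeq promoter windows (assembly GRCm38.p6, the same build as mm10), from 250 bases before to 50 bases after the transcript start, were at hand for 28 of the 34 genes, in 30 windows. NRF1 binds the antioxidant response element, whose core was searched as TGACNNNGC on both strands. The core was in 5 windows, or 16.7%, against 12.4% of all 32851 windows of that length. The stretches below hold the core of 4 of these genes, written 5′ to 3′ on the strand of the gene up to its start at most, with the core or its reverse complement in capitals. They are shown because they include the catalytic subunits Psmb5 and Psmb6 and the most variable member, Psmc6. Psmb5 is at chr14:54617996-54618082 on the minus strand, Psmb6 at chr11:70525308-70525356, Psmd12 at chr11:107479278-107479329 and Psmc6 at chr14:45329574-45329645 on the plus strand.
Psmb5: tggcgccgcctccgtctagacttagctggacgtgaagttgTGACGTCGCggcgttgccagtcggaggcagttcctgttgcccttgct
Psmb6: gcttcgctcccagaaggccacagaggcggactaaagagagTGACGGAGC
Psmd12: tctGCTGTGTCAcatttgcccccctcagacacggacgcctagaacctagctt
Psmc6: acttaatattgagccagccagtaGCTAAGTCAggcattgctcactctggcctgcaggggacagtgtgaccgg

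The core began 47 bases before the annotated start of Psmb5 and 9 bases before that of Psmb6, but 247 and 227 bases before those of Psmd12 and Psmc6. In Psmd9, the other gene with the core, whose stretch is not shown, it began 31 bases before the start. The motif whose share differed most from that in all windows was the core CCGGAAG of ETS factors, a family of transcription factors that bind many housekeeping promoters. It was in 11 windows of 10 members, or 36.7%, against 8.86% of all windows. The CCAAT box, the sequence CCAAT bound by the factor NF-Y, was in 36.7% of the members' windows and in 37.4% of all. The TATA box, searched as TATAAA, was in 10.0% and 13.6%. The palindrome bound by nuclear respiratory factor was in 1 window, that of Psma2, or 3.33% against 0.971%. A match is a description of letters, not a sign that a factor bound, and the absence of one says only that these letters are not in this window. The stretches below show the ETS core, as CCGGAAG or its reverse complement CTTCCGG, in regulatory particle genes from the highest level in FPKM to the lowest. Psmd2 is at chr16:20651598-20651651 on the plus strand, Psmd4 at chr3:95042705-95042767 on the minus strand, and Psmc6 at chr14:45329696-45329758, Psmc2 at chr5:21785163-21785225 and Psmd11 at chr11:80428576-80428614 on the plus strand.
Psmd2: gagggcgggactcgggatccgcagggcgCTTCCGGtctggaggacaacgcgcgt
Psmd4: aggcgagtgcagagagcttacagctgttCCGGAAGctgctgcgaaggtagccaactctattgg
Psmc6: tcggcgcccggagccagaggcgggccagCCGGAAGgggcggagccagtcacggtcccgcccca
Psmc2: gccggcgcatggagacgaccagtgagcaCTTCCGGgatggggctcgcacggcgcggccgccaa
Psmd11: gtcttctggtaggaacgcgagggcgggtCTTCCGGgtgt

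Among the subunits of the complex, the level ran over 5.55-fold, from Psma2, an alpha ring subunit, at a mean of 14.9 FPKM over the 12 libraries to Psmb5, the chymotrypsin-like catalytic subunit, at 82.6. The 3 lowest members were the chaperones that help to assemble the regulatory particle and then leave it: Psmd10 at 6.90 FPKM, Psmd5 at 4.76 and Psmd9 at 4.35. Class medians were 27.2 FPKM for the 7 alpha subunits, 36.7 for the 7 beta subunits, 38.2 for the 6 ATPases, 23.1 for the 11 non-ATPase subunits and 4.76 for the 3 chaperones. Of the 33 pairs of neighbours in the order of levels, only 4 had values that did not overlap over the 12 libraries: Psmb6 over Psma4, Psmd13 over Psmc2, Psma2 over Psmd10 and Psmd10 over Psmd5. In 7 pairs the order was the same in all 12 libraries.

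**Figure D1:**
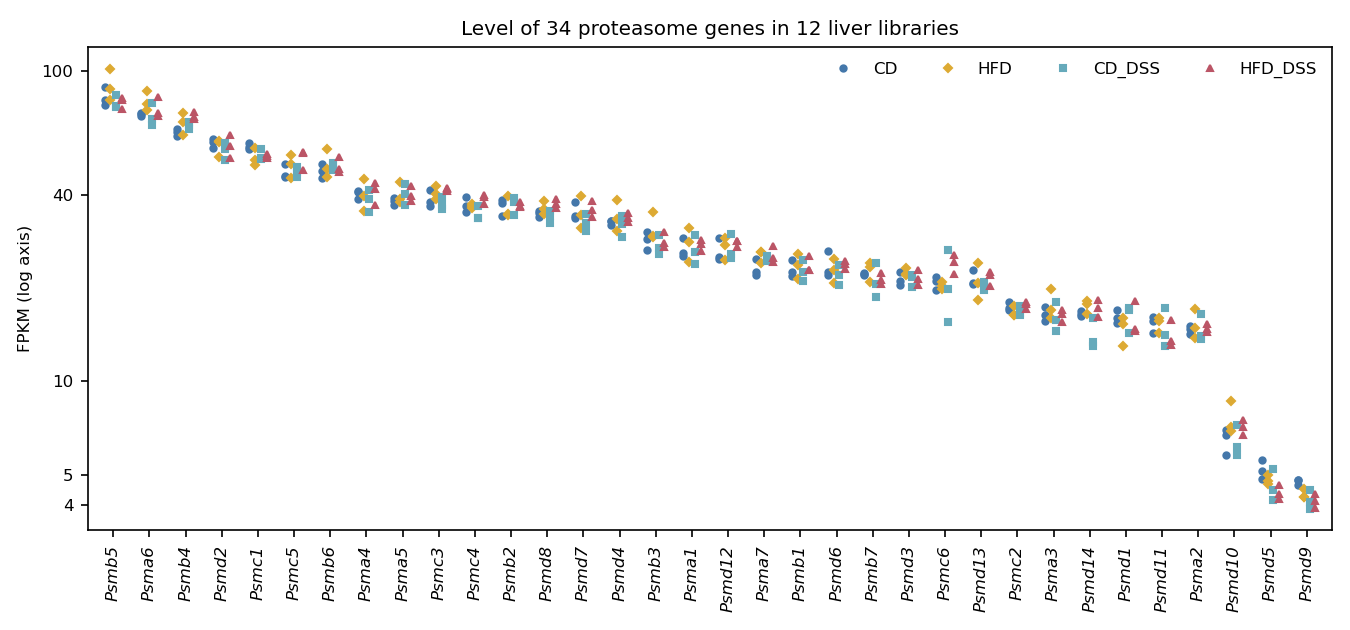
Level of each of the 34 members in FPKM (log axis), with 1 point per library and 1 marker shape and colour per group. The 31 subunits slope down to Psma2, with breaks below Psmb6 and below Psmd13, and the 3 assembly chaperones Psmd10, Psmd5 and Psmd9 stand below them in every library.

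These levels depend on the length by which the fragments were divided. Dividing by the principal transcript in place of all exons put Psmb6, the caspase-like subunit, first at 115 FPKM and moved Psmb5 from rank 1 to rank 6. Psma7 went from rank 19 to rank 5, Psmb3 from 16 to 4 and Psma5 from 9 to 23. The range over the subunits was then 6.14-fold, the beta subunits had the highest class median at 82.6 FPKM, and the same 3 chaperones were lowest. Log2 changes between groups were fitted on the deposited FPKM only; with 1 added before the log, another length would shift them, most for the low genes.

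Symbols that fit the pattern but missed the level were Psma8, the alpha subunit of the testis, at 0.025 to 0.59 FPKM, Psmc3ip, a recombination factor and no subunit, at 0.021 to 0.41, and Psmb11, the thymus subunit, listed at 0 in all 12. The mean level just outside the threshold was 0.31 FPKM (Psma8) and just inside it 4.35 FPKM (Psmd9). The 4 pseudogenes with fitting symbols were at no more than 0.059 FPKM in any library. Psmd9, Psmb5, Psmb7 and Psmd13 shared over 10% of their exon bases with another gene of the table, up to 25.5% for Psmd9. The other genes of Psmd9 and Psmb5 were listed at a mean of 0 FPKM. Those of Psmb7 (Nek6, 8.38 FPKM) and Psmd13 (Sirt3, 8.57 FPKM) lie on the opposite strand. Whether the counting used strand is not given, so the values of Psmb7 and Psmd13 may hold fragments of the other gene.

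The members varied little between libraries. The median SD over the 12 libraries, on the scale of log2(FPKM + 1), was 0.099 for the members, 0.18 for all genes tested and 0.18 for the 5273 genes with a mean of at least 5 FPKM. The highest library was at the median 1.27 times the lowest for the members and 1.69 times for all genes tested. Psmc2, an ATPase, varied least: its 12 values ran from 16.3 to 18.1 FPKM, and its SD of 0.051 was lower than that of all but 0.20% of the genes tested. Psmc6, another ATPase of the same ring, varied most, from 15.5 to 26.5 FPKM, at percentile 57.0 of all genes tested. Counting error alone is 2.27% for Psmc2 and 2.77% for Psmc6 in the library with the fewest fragments, against a measured coefficient of variation of 3.72% and 13.8%.

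No member passed the test in any of the comparisons, and under some alternatives given below 1 or 2 did. Each was tested with limma on log2(FPKM + 1) over all 10806 genes, with Benjamini-Hochberg adjustment and a threshold of 0.05. For CD_DSS against CD, 0 of 34 members were called against 4.80% of all genes tested. For HFD_DSS against HFD, 0 of 34 were called against 4.83%. Over both diets together, where the test had 6 libraries on each side, 0 of 34 were called against 20.0%. The diet comparisons called few genes of any kind: 0.00925% for HFD against CD and 0.102% for HFD_DSS against CD_DSS. The difference between the DSS effects on the diets called 0 members and 0.00925% of all genes. These comparisons share libraries, and are not independent of each other.

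The shares of all genes rested on single libraries. For CD_DSS against CD the share was 0.583% without CD_DSS 3 and 11.8% without CD_DSS 1, and it also moved by over 1.5 times without any library of CD, CD_DSS 2, HFD 3 or HFD_DSS 3. For HFD_DSS against HFD it was 0.0833% without HFD 2 and 8.37% without CD_DSS 1, and it moved by over 1.5 times without CD 2, HFD 3 or any library of HFD_DSS. Over both diets it was 12.1% without HFD 2 and 24.7% without CD_DSS 1, and it moved by over 1.5 times without HFD 2, CD_DSS 3, HFD_DSS 1 or HFD_DSS 3. Without CD_DSS 1, 1 member was called for CD_DSS against CD (Psmd14) and 1 over both diets (Psmd5), and leaving out any other single library called none. Without HFD 1, CD_DSS 1 and HFD_DSS 2 the shares were 17.8%, 18.8% and 31.2%. Of the genes called with all 12 libraries, 41.8% were higher in CD_DSS against CD, 35.8% in HFD_DSS against HFD and 43.7% over both diets, and after rescaling each library to TPM, which divides by the library's summed FPKM, 62.2%, 66.8% and 58.3%.

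At an unadjusted limma p under 0.05, 2 members were counted for CD_DSS against CD (23.6% of all genes), 0 for HFD_DSS against HFD (23.7%), 1 over both diets (35.0%), 0 for HFD against CD (6.72%), 1 for HFD_DSS against CD_DSS (10.8%) and 0 for the difference between the DSS effects (4.93%). The median size of the fitted log2 change, whatever its sign, was 0.038 for the members and 0.14 for all genes over both diets. It was 0.054 and 0.15 for CD_DSS against CD, and 0.052 and 0.15 for HFD_DSS against HFD. The 95% interval of all 34 members lay within 1.5-fold in either direction in these 3 comparisons and in both diet comparisons.

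**Figure D2:**
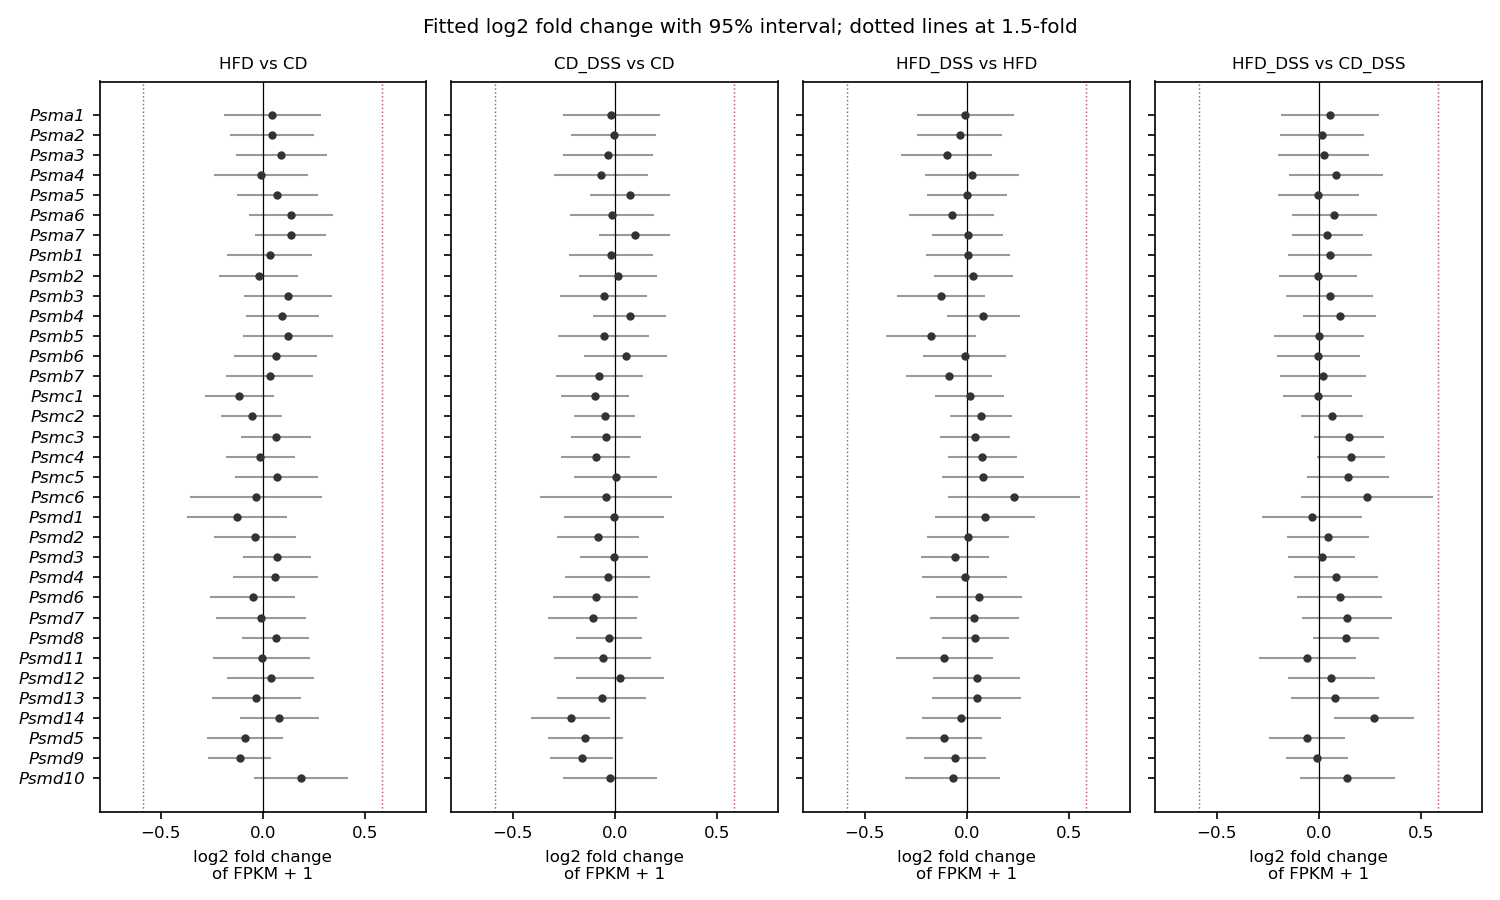
Fitted log2 change of FPKM + 1 for each of the 34 members with its 95% interval from limma, in 4 comparisons of 3 against 3 libraries, with dotted lines at 1.5-fold. No interval reaches a dotted line, and all point values lie between -0.22 (Psmd14, CD_DSS vs CD) and 0.27 (Psmd14, HFD_DSS vs CD_DSS).

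The median of the members' log2 changes was -0.038 for CD_DSS against CD, beside -0.0071 for all genes, with 7 of 34 members above 0 (13 after TPM scaling and 22 after quantile normalisation, which turned the median to 0.022). Without CD_DSS 1 it was -0.081, and also without HFD 1, CD_DSS 1 and HFD_DSS 2; without CD 3 it was -0.017 and without CD_DSS 3 it was -0.019. It was 0.0047 for HFD_DSS against HFD, beside -0.011, with 19 above 0 (23 after TPM scaling and 25 after quantile normalisation), and ran from -0.039 without HFD 3 to 0.066 without HFD 1. For HFD_DSS against CD_DSS it was 0.057, beside -0.0028, with 26 above 0 (21 after TPM scaling and 28 after quantile normalisation). Without CD_DSS 3 it was 0.026, without CD_DSS 1 it was 0.088 with 33 above 0, and without HFD 1, CD_DSS 1 and HFD_DSS 2 it was 0.098. For HFD against CD it was 0.042, beside 0.0054, with 20 above 0 (18 after TPM scaling and 21 after quantile normalisation), and it was -0.0095 without HFD 1, 0.028 without CD 2 and 0.083 without HFD 3. The spread between libraries of a group in the member median was 0.056 (pooled SD).

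The extremes of each comparison were as follows, in log2. For CD_DSS against CD the highest members were Psma7 at 0.098, Psma5 at 0.074, Psmb4 at 0.072 and Psmb6 at 0.053, all ring genes, and the lowest were Psmd14 at -0.22, Psmd9 at -0.16, Psmd5 at -0.14 and Psmd7 at -0.11. For HFD_DSS against HFD the highest were Psmc6 at 0.23, Psmd1 at 0.089, Psmb4 at 0.081 and Psmc5 at 0.080, and the lowest Psmb5 at -0.18, Psmb3 at -0.13, Psmd5 at -0.11 and Psmd11 at -0.11. Psmb4 was thus among the highest 4 and Psmd5 among the lowest 4 with either diet, while the other members at the ends differed. For HFD against CD the highest were Psmd10 at 0.19, Psma6 and Psma7 at 0.14 and Psmb5 at 0.12, and the lowest Psmd1 at -0.13, Psmc1 at -0.12, Psmd9 at -0.11 and Psmd5 at -0.088. For HFD_DSS against CD_DSS the highest were Psmd14 at 0.27, Psmc6 at 0.24, Psmc4 at 0.16 and Psmc3 at 0.15, and the lowest Psmd5 at -0.056, Psmd11 at -0.055, Psmd1 at -0.034 and Psmd9 at -0.0073. Of the 4 highest in that comparison, 3 were ATPases of the base. None of these values passed the limma test. The difference between the DSS effects was widest for Psmc6, at 0.27 (95% interval -0.19 to 0.73), and lowest for Psmb5, at -0.12.

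In the alpha and beta rings, the highest fitted log2 values were in HFD against CD. Psma6, an alpha subunit, was at 72.4, 71.5 and 73.4 FPKM in CD and at 86.3, 78.5 and 75.0 in HFD. All 3 HFD libraries lay above all CD libraries, with HFD 1 highest, and the log2 change was 0.14 (SE 0.094, limma adjusted p = 0.870). Psma7, another alpha subunit, had a value of 0.14, and Psmb5 one of 0.12, with overlapping groups. Psma6 was the only member whose groups stood apart upward in that comparison, where 6.58% of all genes did so, and Psmd9 the only one downward, against 6.54%.

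Psmb5 was at 77.5, 80.4 and 88.7 FPKM in CD, 102, 87.6 and 80.8 in HFD, 83.5, 76.9 and 76.7 in CD_DSS and 81.7, 80.5 and 75.5 in HFD_DSS. HFD 1 was its highest library and all groups overlapped. Its log2 difference of HFD_DSS from HFD, -0.18 (SE 0.10, limma adjusted p = 0.311), was the lowest of the 34 in that comparison. Psmb4, a structural beta subunit, was at 61.7, 63.8 and 64.8 FPKM in CD, 64.9, 68.5 and 66.9 in CD_DSS and 73.9, 70.2 and 71.2 in HFD_DSS. Its CD_DSS libraries lay above those of CD by the narrowest of margins, and below those of HFD_DSS. Over both diets its log2 value was 0.077 (limma adjusted p = 0.374), and after quantile normalisation 0.20 (limma adjusted p = 0.0173). It was the only member called under that scaling, which called 19.3% of all genes over both diets.

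Among the ATPases, Psmc6 had the widest spread. It was at 21.0, 21.6 and 19.8 FPKM in CD, 20.3, 19.8 and 20.9 in HFD, 26.5, 19.9 and 15.5 in CD_DSS and 25.5, 22.2 and 24.3 in HFD_DSS. The libraries of CD and HFD lay close together, those of CD_DSS held both its highest and its lowest value, and all of HFD_DSS lay above all of HFD. The log2 difference of HFD_DSS from HFD was 0.23 (SE 0.15, limma adjusted p = 0.370). It was the only member of which the HFD_DSS libraries stood above those of HFD (12.4% of all genes), and Psmd5 the only one of which they stood below (14.7%). The ATPases had class medians of -0.046 for CD_DSS against CD and 0.073 for HFD_DSS against HFD, and the test of the difference between these effects called none of the 6.

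Among the non-ATPase subunits, Psmd14 (chr2:61711694-61800376, plus strand, GENCODE annotation of mm10) had the largest fitted differences. It encodes the deubiquitinase that cuts ubiquitin chains off the substrate as it enters the barrel. It was at 16.8, 16.4 and 16.2 FPKM in CD (16.5 ± 0.285, SD, n = 3), at 18.2, 16.5 and 17.8 in HFD (17.5 ± 0.887), at 15.9, 13.0 and 13.4 in CD_DSS (14.1 ± 1.60) and at 17.3, 18.2 and 16.1 in HFD_DSS (17.2 ± 1.08). The CD_DSS libraries were the lowest 3 of the 12, and CD_DSS 1 was the nearest of them to the other groups.

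The log2 difference of CD_DSS from CD in Psmd14 was -0.22 (SE 0.088, limma adjusted p = 0.173), and that of HFD_DSS from CD_DSS was 0.27 (SE 0.088, 95% interval 0.077 to 0.46, limma adjusted p = 0.295). Without CD_DSS 1 the first was -0.30 with a limma adjusted p of 0.0400, past the threshold. Without HFD 1, CD_DSS 1 and HFD_DSS 2 it was again -0.30, with 0.0253. With libraries weighted by their fit it was -0.27, with 0.0174, and CD_DSS 1 had a weight of 0.374 against 1.67 for CD_DSS 2 and 0.918 for CD_DSS 3. These fits all left out or weighted down CD_DSS 1, so they are not separate checks. In the same order they called 11.8%, 17.8% and 24% of all genes. The effects of DSS on the diets differed by 0.19 (SE 0.12, limma adjusted p = 1.00), so the difference between the diets was not called.

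Among the other non-ATPase subunits, Psmd11, a scaffold of the lid, was at -0.11 for HFD_DSS against HFD. Over both diets it was called with library weights, at -0.17 (limma adjusted p = 0.0386), and without HFD 1, CD_DSS 1 and HFD_DSS 2, at -0.20 (limma adjusted p = 0.0321). These fits called 39.4% and 31.2% of all genes. Psmd7, the partner of Psmd14 in the lid, was at -0.11 for CD_DSS against CD. Psmd1, a large scaffold of the base, ranged from -0.13 for HFD against CD to 0.089 for HFD_DSS against HFD, with its lowest library, 13.0 FPKM, in HFD 1. For HFD_DSS against CD_DSS, 5 members stood above with no overlap, namely Psmb4, Psmc3, Psmc4, Psmd8 and Psmd14, and none below, while 7.53% of all genes stood above and 8.97% below. For CD_DSS against CD, Psmb4 stood above (12.6% of all genes), and Psmc1, Psmd14 and Psmd9 stood below (14.4%). Over both diets, with 6 against 6 libraries, no member stood apart (2.74% of all genes above and 3.85% below).

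The assembly chaperones had class medians of -0.14 for CD_DSS against CD and -0.069 for HFD_DSS against HFD in log2, on the deposited scale. Psmd9 (chr5:123169413-123250131), which chaperones a pair of ATPases, was at 4.83, 4.65 and 4.82 FPKM in CD, 4.51, 4.23 and 4.24 in HFD, 4.48, 3.90 and 4.10 in CD_DSS and 4.35, 3.90 and 4.13 in HFD_DSS. The CD libraries were the highest 3 of the 12, and the other groups overlapped. Its log2 difference of CD_DSS from CD was -0.16 (SE 0.069, limma adjusted p = 0.187), and -0.11 over both diets (limma adjusted p = 0.137, the smallest of the 34).

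Psmd5 (chr2:34849734-34874968), a chaperone of the base of the regulatory particle, was at 4.85, 5.13 and 5.60 FPKM in CD, 4.99, 4.69 and 4.79 in HFD, 5.23, 4.46 and 4.15 in CD_DSS and 4.18, 4.33 and 4.65 in HFD_DSS. The HFD_DSS libraries lay below those of HFD by a narrow margin, and CD_DSS 1 lay within the CD range. Over both diets the log2 value was -0.13 (SE 0.060, limma adjusted p = 0.152). Without CD_DSS 1 it was -0.17 (limma adjusted p = 0.0473), in a fit that called 24.7% of all genes over both diets. Psmd10, also known as gankyrin, had the highest value of HFD against CD, 0.19 (limma adjusted p = 0.827), with 8.65 FPKM in HFD 1 and overlapping groups.

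Values also moved by library. Of the 34 members, 17 were highest in HFD 1, 12 of the 14 ring genes and 5 of the other 20. The lowest value was in CD_DSS 2 or CD_DSS 3 for 20 of the 34. The same counts over all genes were not made, so whether they are particular to the members is not known. The median deviation of the members from their own means, in log2, was 0.12 in HFD 1, -0.062 in CD_DSS 2, -0.097 in CD_DSS 3 and 0.028 in CD_DSS 1, while the median over all genes lay between -0.016 and 0.019 in every library. The first principal component of the 34 genes took 42.4% of their variance, beside 43.3% for that of all genes tested. That of the 34 genes ran from -0.67 in CD_DSS 3 to 0.87 in HFD 1.

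**Figure D3:**
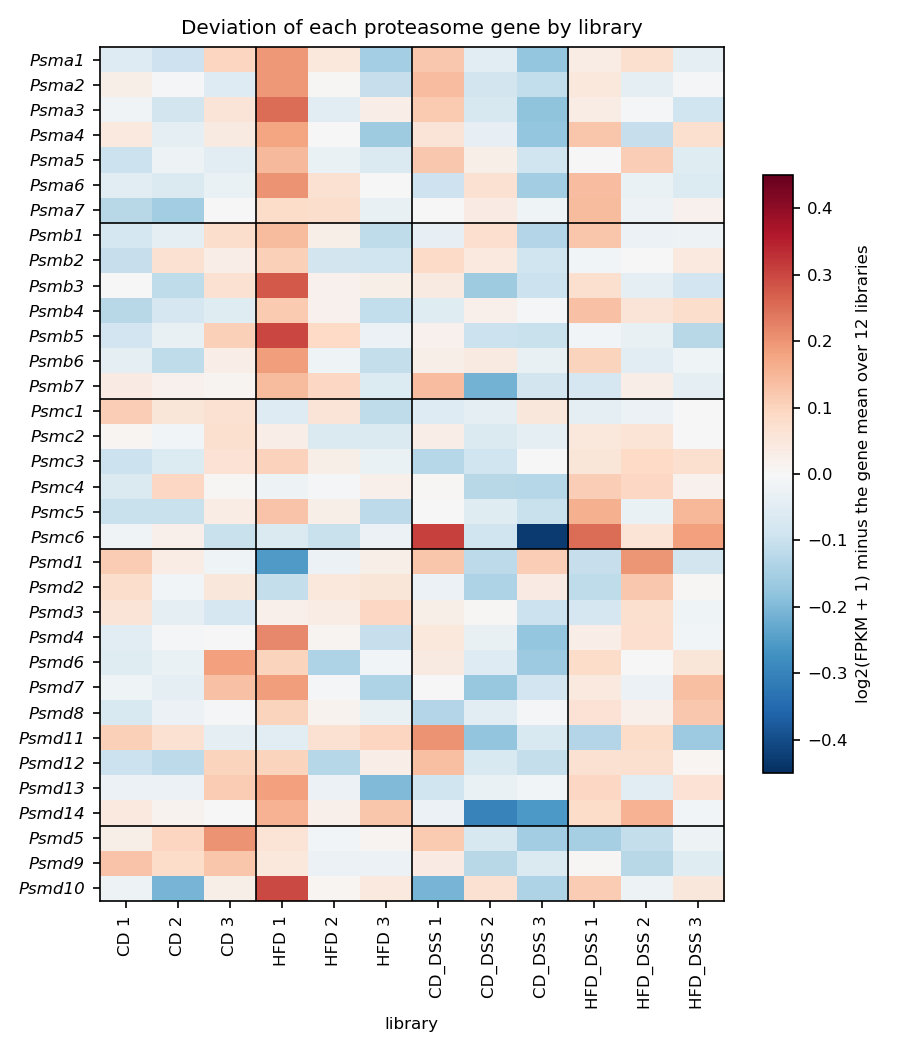
Deviation of log2(FPKM + 1) from the mean over the 12 libraries, with 1 row per member, grouped from top to bottom as alpha ring, beta ring, ATPases, non-ATPase subunits and assembly chaperones, and 1 column per library, with lines between groups. The column of HFD 1 is red over nearly all ring genes (medians 0.19 and 0.14), that of CD_DSS 3 is mostly blue, and Psmc6 and Psmd14 stand out within the DSS columns.

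Transcript length moved with the pattern in HFD 1. Across the members the deviation in HFD 1 had a Spearman correlation of -0.51 with the length of the principal transcript (34 genes), and across all genes one of -0.49 (9767 genes). The genes of 1 library share its RNA and its depth, so these are descriptions. The 16 members with transcripts under 1500 bases had a median deviation of 0.16 in HFD 1, and the 18 longer ones of 0.080. Length and class overlap here, since most ring genes are among the 16. The ring genes with longer transcripts, Psma2 (2911 bases), Psma3 (2846) and Psmb1 (1758), were at 0.19, 0.25 and 0.14. Over all genes the other libraries ran from -0.16 (CD 3) to 0.25 (HFD_DSS 2). Among the members the correlation was positive in some libraries, up to 0.53 in CD 1, and negative in others, at -0.39 in HFD_DSS 1 and -0.35 in CD_DSS 2. The part of transcript length in the values of HFD 1 was not tested.

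**Figure D4:**
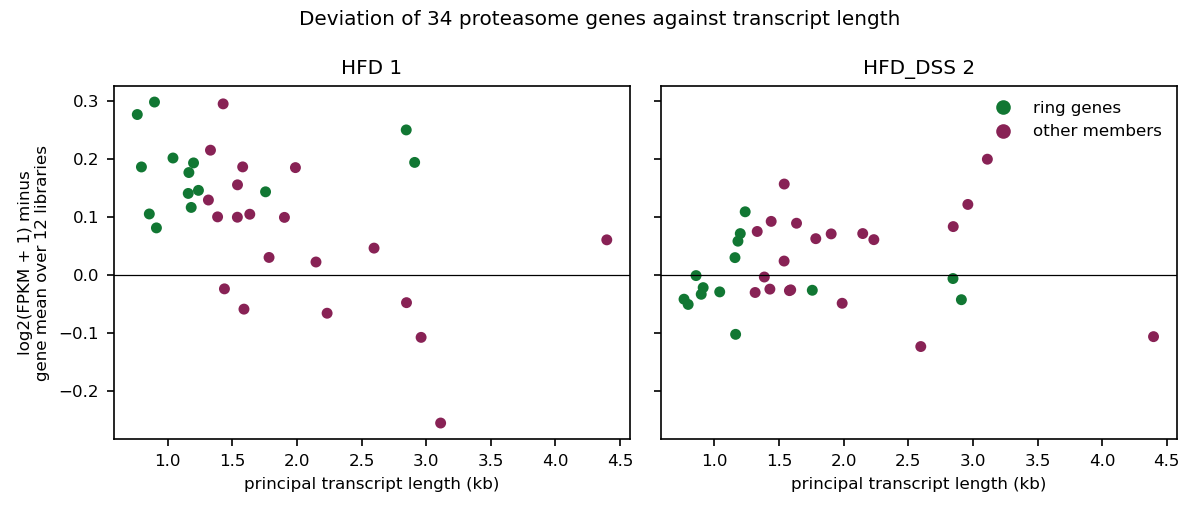
Deviation of log2(FPKM + 1) of each member from its mean against the length of its principal transcript in kilobases, in HFD 1 (left) and HFD_DSS 2 (right), with the 14 ring genes and the 20 other members in different colours. In HFD 1 the values fall with length (Spearman -0.51), with Psmd1 lowest, and in HFD_DSS 2 they do not (0.20).

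The DSS effects on the diets rest on separate libraries. Both were above 0 for 6 members, both below 0 for 14 and of opposite sign for 14. Their Pearson correlation over the 34 genes was 0.19 and the Spearman correlation 0.17, as a description of genes that share libraries.

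The immunoproteasome subunits Psmb8, Psmb9 and Psmb10 replace Psmb5, Psmb6 and Psmb7 when the particle is built under interferon. None of the 3 passed the limma test in any comparison. Psmb8 was at 8.29, 7.25 and 7.95 FPKM in CD and at 8.89, 10.7 and 10.8 in CD_DSS, with no overlap and a log2 difference of 0.33 (SE 0.13, limma adjusted p = 0.148). Of all genes, 12.6% stood above with no overlap in that comparison. Psmb10 was at 15.6, 15.2 and 16.2 FPKM in CD and at 19.0, 24.4 and 22.6 in CD_DSS, again with no overlap and a log2 difference of 0.46 (SE 0.15, limma adjusted p = 0.109). Psmb9 had a log2 value of -0.19 in the same comparison, and in HFD_DSS, at 4.29, 4.34 and 4.30 FPKM, it lay below HFD, at 7.10, 5.25 and 4.59, by 0.31 in log2 (SE 0.14, limma adjusted p = 0.205). For HFD_DSS against HFD, 14.7% of all genes stood below with no overlap.

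Set against the subunit it replaces, Psmb8 made up 8.72% ± 0.813 of the summed FPKM of the pair in CD, 9.35% ± 0.528 in HFD, 11.4% ± 1.55 in CD_DSS and 10.4% ± 1.62 in HFD_DSS (SD, n = 3). Psmb9 made up 8.35% ± 0.605, 10.1% ± 1.07, 6.95% ± 1.25 and 8.04% ± 0.459 in the same order. Psmb10 made up 41.4% ± 0.935, 46.0% ± 2.66, 51.0% ± 6.42 and 47.6% ± 6.22. The mean share of Psmb9 was lower with DSS on either diet and those of Psmb8 and Psmb10 were higher. Single libraries went the other way: for Psmb10, HFD_DSS 2 had the lowest share of all libraries, 40.4%, against 43.9% to 49.0% in HFD. CD_DSS 1, at 44.0%, lay within the range of the libraries without DSS for Psmb10, 40.7% to 49.0%.

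Within diets, the libraries with DSS differed by 1.89 points for Psmb8 (two-sided exact permutation test, p = 0.05, adjusted over 6 tests p = 0.1), by -1.72 points for Psmb9 (exact p = 0.01, adjusted p = 0.06) and by 5.60 points for Psmb10 (exact p = 0.095, adjusted p = 0.1425). The smallest p the 400 regroupings allow is 0.005. Between diets within each DSS state, the share of Psmb9 differed by 1.41 points (exact p = 0.025, adjusted p = 0.075), that of Psmb8 by -0.18 (exact p = 0.86) and that of Psmb10 by 0.58 (exact p = 0.83). None passed 0.05 after adjustment. With principal transcript lengths the shares had medians over the 12 libraries of 18.1%, 9.55% and 26.1%, so the size of a share depends on the length used. Markers of macrophages and neutrophils, which also express these subunits, moved with Saa1: the summed macrophage markers were at 374 FPKM or more in HFD 1, CD_DSS 2, CD_DSS 3, HFD_DSS 1 and HFD_DSS 3 and at 321 or less in the other libraries. Their part in the shares was not tested.

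**Figure D5:**
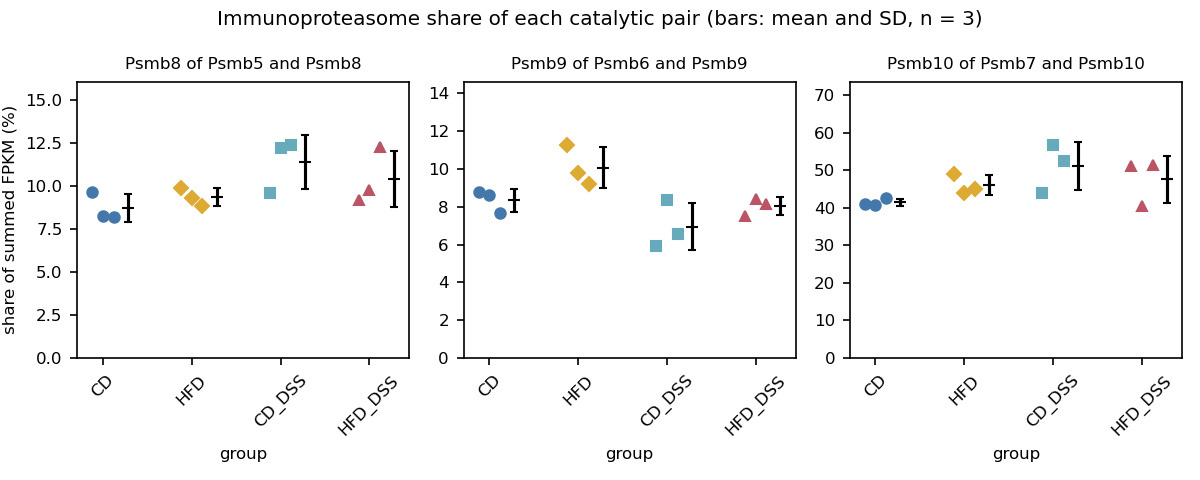
Share of Psmb8, Psmb9 and Psmb10 in the summed FPKM of the catalytic pair, in percent from 0, with 1 point per library and bars for the mean and SD of each group (n = 3). The share of Psmb9 is lowest in CD_DSS at 6.95% and highest in HFD at 10.1%, while those of Psmb8 and Psmb10 are highest in CD_DSS at 11.4% and 51.0%.

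Of the 5 genes for other caps and for the inhibitor PI31, 1 was called, over both diets, where 20.0% of all genes were. Psmf1, which encodes PI31, a binding partner and inhibitor of the core in vitro, was at 4.57, 4.38 and 4.41 FPKM in CD, 4.85, 5.49 and 5.00 in HFD, 3.75, 3.56 and 4.02 in CD_DSS and 4.15, 4.66 and 4.74 in HFD_DSS. With either diet all DSS libraries lay below those without DSS, as for 14.4% of all genes with CD and 14.7% with HFD. Over both diets Psmf1 fell by 0.17 in log2 (SE 0.052, limma adjusted p = 0.0414), with adjusted p between 0.00979 and 0.181 over 20 alternatives, of which 7 kept the call. Psme1 and Psme2, the PA28 cap induced by interferon, and Psme4, the PA200 cap, were not called. The lowest value of Psme2 was -0.34, for HFD_DSS against HFD (SE 0.13, limma adjusted p = 0.138).

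Of the 8 assembly chaperones measured, which include Psmd5, Psmd9 and Psmd10, 1 was called, over both diets, against 20.0% of all genes. Psmg1, which with Psmg2 builds the alpha ring, was at 16.5, 17.6 and 18.3 FPKM in CD, 14.9, 15.2 and 13.9 in HFD, 12.0, 13.9 and 15.2 in CD_DSS and 14.2, 11.6 and 13.9 in HFD_DSS. The libraries of CD were the highest 3, and those of HFD and HFD_DSS overlapped. Over both diets it fell by 0.24 in log2 (SE 0.072, limma adjusted p = 0.0406), with 0.014 to 0.106 over 21 alternatives, of which 6 kept the call. Psmg2 was chosen for mention after its values were seen: all 6 libraries with DSS lay below all 6 without, with a log2 value of -0.20 (limma adjusted p = 0.0512). The margin was narrow, 10.36 FPKM in HFD_DSS 2 against 10.41 in HFD 3, and 3.85% of all genes stood below in this way. Pomp, which matures the beta ring, was at -0.049 over both diets and not called.

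The 7 genes of the NRF1 pathway held 1 call, over both diets, against 20.0% of all genes. Nfe2l1 was at 26.3, 25.7 and 25.2 FPKM in CD, 27.2, 27.3 and 27.3 in HFD, 28.6, 25.0 and 29.5 in CD_DSS and 27.1, 30.3 and 33.7 in HFD_DSS, with a log2 value of 0.12 over both diets (limma adjusted p = 0.213). NRF1 is controlled by degradation and cleavage at the endoplasmic reticulum, which RNA does not show. Sel1l, an adaptor of the endoplasmic reticulum ligase that marks NRF1 for degradation, was at 25.6, 33.2 and 32.8 FPKM in CD, 27.0, 30.0 and 33.4 in HFD, 36.7, 38.6 and 45.5 in CD_DSS and 61.3, 34.1 and 51.6 in HFD_DSS. All 6 libraries with DSS lay above the 6 without, as for 2.74% of all genes. It rose by 0.52 in log2 over both diets (SE 0.13, limma adjusted p = 0.0215), with 0.00245 to 0.0585 over 21 alternatives, of which 18 kept the call. Nfe2l2, the related factor of the oxidative stress response, was at -0.025 over both diets and not called.

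Of the 6 genes for ubiquitin and its activating enzymes, 1 was called, both over both diets (20.0% of all genes) and for CD_DSS against CD (4.80%). Ubb, a polyubiquitin gene induced by stress, was at 127, 129 and 128 FPKM in CD, 169, 146 and 137 in HFD, 166, 201 and 174 in CD_DSS and 227, 174 and 198 in HFD_DSS. All DSS libraries lay above the libraries of their own diet, as for 12.6% of all genes with CD and 12.4% with HFD. HFD 1 was the highest without DSS. Ubb rose by 0.44 in log2 over both diets (SE 0.087, limma adjusted p = 0.00672) and kept that call in all 21 alternatives. Ubiquitin genes hold near-identical repeats, and how reads that fit more than 1 of them were assigned is not stated, so the value of Ubb is uncertain. For CD_DSS against CD alone Ubb rose by 0.49 (SE 0.12, limma adjusted p = 0.0488), a call that 11 of 22 alternatives kept, with adjusted p from 0.00375 to 0.161.

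Of 10 genes of class I antigen presentation, which loads peptides made by the proteasome, 1 was called over both diets (20.0% of all genes) and 1 for HFD_DSS against HFD (4.83%). Tapbp rose by 0.24 over both diets (SE 0.076, limma adjusted p = 0.0450; 11 of 21 alternatives kept the call, 0.0019 to 0.11). Canx, a chaperone of the endoplasmic reticulum, rose by 0.36 for HFD_DSS against HFD (SE 0.088, limma adjusted p = 0.0439; 10 of 22 alternatives kept it, 0.00321 to 0.177). None of 10 associated factors and subunits named outside the Psm scheme, Adrm1 and Usp14 among them, was called in any comparison.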

How the data were processed

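Liver RNA of 12 libraries, 3 per group, was analysed from the FPKM per gene that the authors deposited in 1 table, with genome build mm10 per the submitters' processing notes. The labels name no aligner, counter, strand setting or annotation. As well as the libraries the table held 4 unnamed empty columns, which were not used. Gene IDs were matched to GENCODE M21 (54495 of 54532 IDs) for symbols, classes and exon lengths. Multiplied by exon length and the recovered factor of the library, 97.0 to 97.3% of low values came out within 0.02 of whole fragments. Depth is the sum of these fragments.

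Genes of at least 1 FPKM in at least 3 libraries were fitted as log2(FPKM + 1) by group over all 12 libraries with limma 3.58.1 (R 4.3.3; empirical Bayes with variance trend), two-sided, with Benjamini-Hochberg adjustment over all 10806 genes. A fold change on this scale understates that of low genes. The fit was tested on simulated data. Shares were tested by exact permutation within strata (Python 3.11.15), and Spearman correlations were computed with scipy 1.17.1. The alternatives were pseudocount 0.1, no filter, a mean of at least 5 FPKM, scaling to TPM, by quantiles or by the median of ratios, library weights, the replicate number as a block, 2 groups alone and leaving out each library. Median-of-ratios scaling gave nearly the main fit again, with the same number of genes called in every comparison, such as 519 for CD_DSS against CD. It is therefore no separate check, though it is counted among the alternatives. Leaving out 3 libraries together was chosen after seeing the data.

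The members and lists were chosen with earlier results of these data known. Named were the members with the 4 highest and 4 lowest changes of a comparison, the extremes of level, called genes of the lists and a short list of fixed genes. Some items are not reported here. Counting intervals were not computed, since values are FPKM. Promoter sequences are from RefSeq.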

Additional observations from a re-analysis of the deposited data

How the results depend on the processing

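Of the recomputed medians and counts of called members, 244 stayed within the spread between libraries or within 1.5 times and 12 did not. The 244 include those of median-of-ratios scaling, which nearly repeats the main fit and is no separate check. Small medians changed sign, among them CD_DSS against CD and the median over both diets with quantile normalisation and HFD against CD without HFD 1 (-0.0095). Quantile normalisation moved the member median to 0.022 for CD_DSS against CD, 0.083 for HFD_DSS against HFD and 0.048 over both diets. It called 1 member over both diets (Psmb4), where 19.3% of all genes were called. Library weights called 2 members for CD_DSS against CD (Psmd14 at -0.27 and Psmd9 at -0.18), against 24% of all genes. Over both diets they called 2 (Psmd14 at -0.15 and Psmd11 at -0.17), against 39.4% of all genes. Leaving out 1 library at a time gave 0 to 1 called members for CD_DSS against CD and 0 to 1 over both diets. The 1 was without CD_DSS 1, where 11.8% and 24.7% of all genes were called. Member medians for HFD_DSS against HFD ran from -0.039 to 0.066, the highest without HFD 1. Without HFD 1, CD_DSS 1 and HFD_DSS 2 together, 1 member was called for CD_DSS against CD, against 17.8% of all genes. Over both diets 2 were called (Psmd14 at -0.17 and Psmd11 at -0.20), against 31.2% of all genes. The median difference between the DSS effects was then 0.10. The cause of these shifts was not tested.

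With the replicate number as a block, 0 members were called in all 6 comparisons. Same-numbered libraries had correlations of their deviations from -0.356 to 0.258 and others from -0.36 to 0.461. With 3 libraries per group, such overlapping ranges cannot decide whether the numbers pair the libraries, and the labels do not state it. The block took the calls over all genes from 519 to 290 for CD_DSS against CD and from 522 to 278 for HFD_DSS against HFD, and the 2 groups alone called 220 and 122. With no filter on low values the counts were 157 and 130. Depth limits the chaperones most, at 206 fragments in the lowest library of Psmd10, a counting error of 6.97%. The median standard error of a member's log2 change between groups of 3 was 0.094.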
